A study of Mus musculus with 18 samples.

Results

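Axon guidance ligands and receptors are secreted or membrane proteins that steer growing nerve fibres, and they were followed here in sorted mouse islet cells with and without interferon gamma (IFNγ). The gene group was chosen by symbol, as all semaphorins (Sema), plexins (Plxn), neuropilins (Nrp), netrins (Ntn), Unc5 receptors, Slits, Robos, ephrins (Efna, Efnb) and Eph receptors (Epha, Ephb) whose expected counts summed to at least 90 over the 18 libraries. Among the 55487 genes listed for each library, 73 symbols matched these names. Of these, 3 were antisense transcripts of Plxna4 (Plxna4os1 to Plxna4os3) and 70 were protein-coding genes, of which 52 reached that sum. The 52 members were 28 genes of ligand families (16 semaphorins, 4 netrins, 2 Slits, 3 ephrin-A and 3 ephrin-B genes) and 24 of receptor families (8 plexins, 2 neuropilins, 4 Unc5, 2 Robo, 5 EphA and 3 EphB genes). Members just inside the limit were Sema3a with 98 counts, Plxnd1 with 100, Epha2 with 102 and Sema3d with 107, and genes just outside it were Slit1 with 87, Ntng1 with 83, Sema3g with 80 and Epha5 with 61.

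In the developing nervous system these families work as pairs at the cell surface. Semaphorins signal through plexins, and the secreted Sema3 proteins mostly need a neuropilin as co-receptor. Slits repel cells through Robo receptors, netrins act through DCC and through the Unc5 receptors, and ephrins are bound to the cell surface, so that they meet Eph receptors only where cells touch. All of these receptors feed into small GTPases that reshape the actin cytoskeleton, and in islets Eph and ephrin proteins are known for a role in contact between beta cells, while Robo receptors are known for the arrangement of endocrine cells within the islet.

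The libraries came from islets of male C57BL/6 mice, 12 weeks old, with no transgene or other genetic change in any group. Islets were cultured for 20 h with 5 ng/mL IFNγ or without it as control, then dissociated and sorted into alpha, beta and delta cells, which gave 6 groups of 3 libraries. Sorting took Epcam+ cells without the surface proteins CD45, TER119 and CD31, as alpha cells with low CD24 and no CD71, beta cells with low CD24 and with CD71, and delta cells with high CD24. IFNγ thus acted on whole islets, and a sorted fraction shows the treated state of its cells within the islet. The study states that each sample was an independent biological sample. The labels name no batch, but file names carried 9 dates, delta controls and delta IFNγ libraries shared no date, and 5 libraries were alone on their date. Beta control 3 carries the word papain in its file name in place of CD71, and the sources used here do not say what differed in its preparation.

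The libraries held 6128845 to 11531734 expected counts each (median 8697388). The summed level of 6 alpha cell markers was 77254 to 122089 CPM (counts scaled to library size) in alpha libraries and at most 3265 CPM elsewhere, that of 6 beta cell markers 43386 to 58683 CPM in beta libraries and at most 11388 elsewhere, and that of 5 delta cell markers 11227 to 37724 CPM in delta libraries and at most 163 elsewhere, so the fractions carried the hormones of their labels. The delta libraries also held 344 to 1944 CPM of 9 acinar genes, and beta control 1 held 1597 CPM of them. Of cells that use guidance genes themselves, 8 endothelial genes summed to at most 9.6 CPM in any library, 7 mesenchymal genes to at most 10.9 CPM, and 8 Schwann and neuronal genes to between 25.4 and 128 CPM with Prph at 0 in every library. In the count of reads by GC content of genes, alpha IFNγ 1 and 3 stood apart from alpha IFNγ 2 and the alpha controls, with values given beside the response of alpha cells. In bulk libraries, a change in the number of cells of a type within a fraction and a change in RNA per cell cannot be told apart.

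Levels between genes are compared on TPM, the deposited level corrected for gene length. The highest mean over all 18 libraries in each family was 37.2 TPM for the plexin Plxnb2, 25.9 for Robo2, 15.3 for Sema4a, 8.25 for Unc5a, 5.3 for Efna5, 3.62 for Efnb1, 2.56 for Ephb2, 2.08 for Ntn4, 1.82 for Epha7, 1.51 for Slit2 and 0.992 for Nrp2. Most receptor RNA thus sat in a few genes, with Plxnb2 and Robo2 at 39.7 ± 4.18 and 38.7 ± 6.51 TPM (mean ± SD, n = 3) in control alpha cells. Summed over the ligand families, the level in controls was 79.4 ± 22.5 TPM for alpha cells, 36.9 ± 6.89 for beta cells and 91.2 ± 15.3 for delta cells. Summed over the receptor families it was 128 ± 17.3, 114 ± 12.5 and 94.0 ± 15.1 TPM for these types. These sums are descriptions without a test. The map of all members by library shows the genes behind these sums, whose order of cell types differed from gene to gene.

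**Figure D1:**
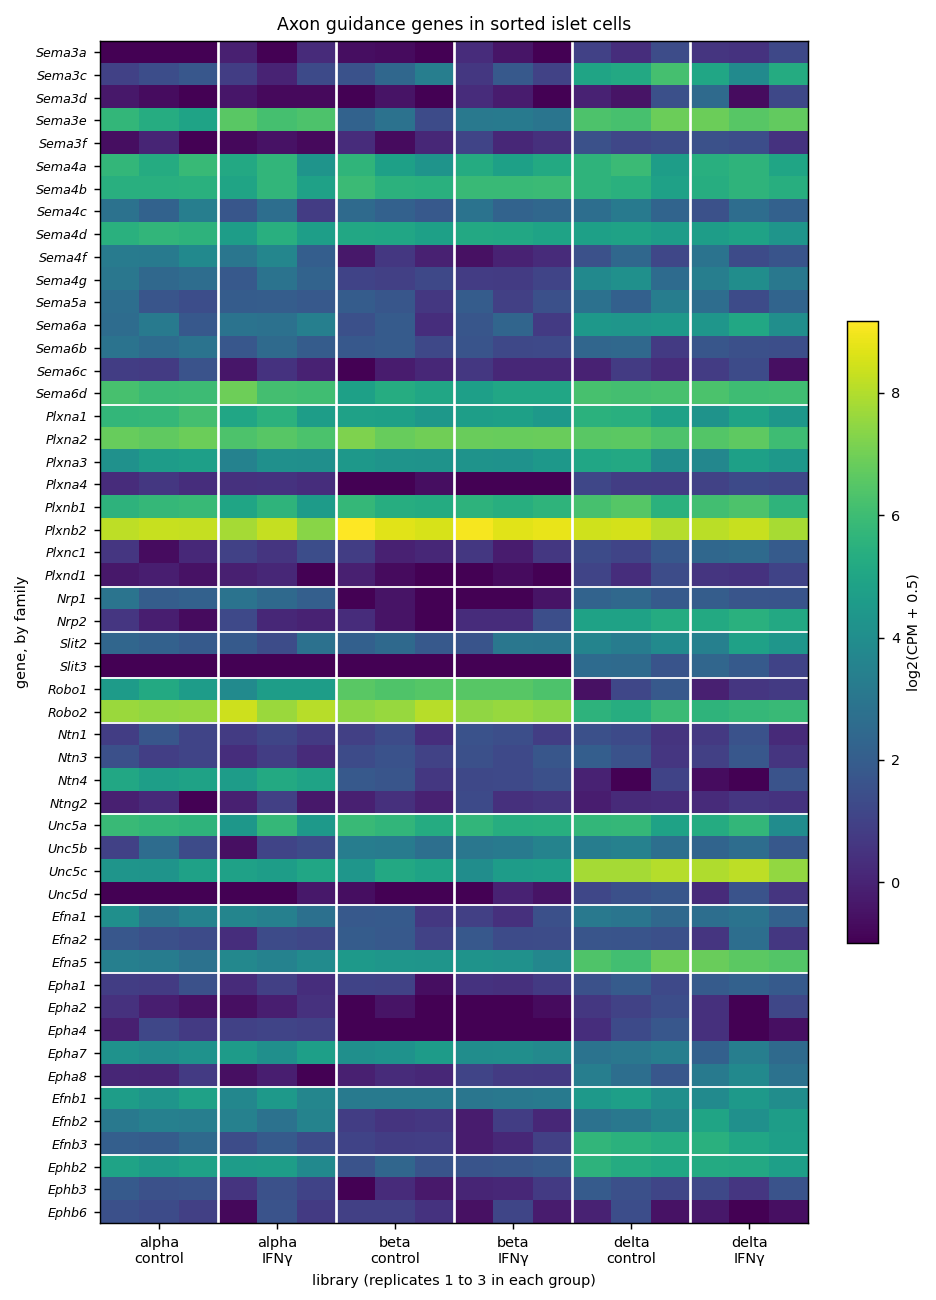
Levels of the 52 axon guidance genes in each of the 18 libraries, as log2(CPM + 0.5) in colour, with genes in rows by family (white lines between families) and libraries in columns, replicates 1 to 3 in each of 6 groups. Blocks that change at the cell type borders (for example Robo1, Slit3, Ntn4, Unc5c, Nrp2 and Efnb3) are more frequent than blocks that change between control and IFNγ libraries of one cell type.

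The first question of the design was how the cell types differ without cytokine. Values within a gene are given as CPM scaled by library composition (TMM), differences as the log2 fold change of the fit with its standard error (SE), and a gene was called higher or lower when edgeR's quasi-likelihood test gave a Benjamini-Hochberg adjusted p under 0.05 over the 17338 genes tested, among them all 52 members. In control alpha against control beta cells, 16 members were higher and 2 lower in alpha cells, against 19.7% of all tested genes called in either direction (9.56% higher and 10.1% lower). In control delta against control beta cells, 25 were higher and 4 lower in delta cells, beside 20.5% of all genes called (11.4% higher and 9.11% lower). In control delta against control alpha cells, 14 were higher and 6 lower in delta cells, beside 19.7% called (10.9% higher and 8.77% lower). The median log2 fold change over the members was 0.55, 1.44 and 0.42 in these comparisons, and that over all tested genes was 0.04, 0.05 and 0.03. Membership itself leaned on the delta libraries. Without them 13 members fell under the minimum sum of counts, against 7 without the alpha and 1 without the beta libraries. The counts and medians of the delta comparisons may thus be raised by the choice of members. They were not recomputed without these members, so the difference from all genes was not tested.

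Across the 3 comparisons, 12 members were higher in delta cells than in both other types (Efna5, Efnb3, Epha8, Nrp2, Sema3a, Sema3c, Sema3e, Sema6a, Slit2, Slit3, Unc5c and Unc5d). Of these, Epha8, Nrp2, Sema3a, Slit3 and Unc5d reached the sum of 90 counts only with the delta libraries, as did 8 other members. Their place among the members thus already rested on high counts there. Delta cells were lower than both others for 3 members (Epha7, Robo1 and Robo2). Beta cells were lower than both others for 13 members (Efna1, Efnb1, Efnb2, Efnb3, Epha4, Ephb2, Ephb3, Nrp1, Plxna4, Sema3e, Sema4f, Sema4g and Sema6d) and higher than both for Robo1 alone. Alpha cells were higher than both others for 3 members (Ntn4, Sema4d and Sema4f) and lower than both for Efna5. No pair of control cell types was called different for 18 members, among them abundant genes such as Plxnb2, Sema4a, Sema4b, Plxnb1 and Unc5a. These patterns were not counted over all tested genes, so whether they are more frequent among the members was not tested.

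When each library was left out in turn, 17 of the 18 calls of alpha against beta cells, 22 of the 29 of delta against beta and 16 of the 20 of delta against alpha cells held every time. Besides the genes named with their values further on, those lost at least once were Efna1 (adjusted p up to 0.101), Epha2 (0.0959), Plxnd1 (0.135), Sema3a (0.0937) and Sema4f (0.0985) in delta against beta cells, and Plxnc1 (0.137) in delta against alpha cells, where the highest value came without beta control 3, beta control 1, beta control 2, beta control 3, delta control 2 and delta control 3 in this order. Genes of other cells also moved with the fractions. The acinar genes were at most 35.2 CPM in alpha libraries and at most 121 in beta libraries other than beta control 1, below the delta libraries, and Ppy and Ghrl together held 1250 to 2411 CPM in alpha and 785 to 2494 CPM in delta libraries against 62.8 to 463 CPM in beta libraries. The 6 duct genes summed to 759 to 1405 CPM in alpha, 407 to 603 in beta and 228 to 400 in delta libraries. Most of the alpha sum came from Spp1 and most of the beta sum from Krt7. Sox9 ran the other way, with 17.1 to 34.5 CPM in delta and at most 0.585 CPM in alpha and beta libraries. Krt19 and Cftr also reached their highest values in delta libraries, so the sums give no order of duct cells between the fractions. The part of these cells in the differences was not tested.

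**Figure D2:**
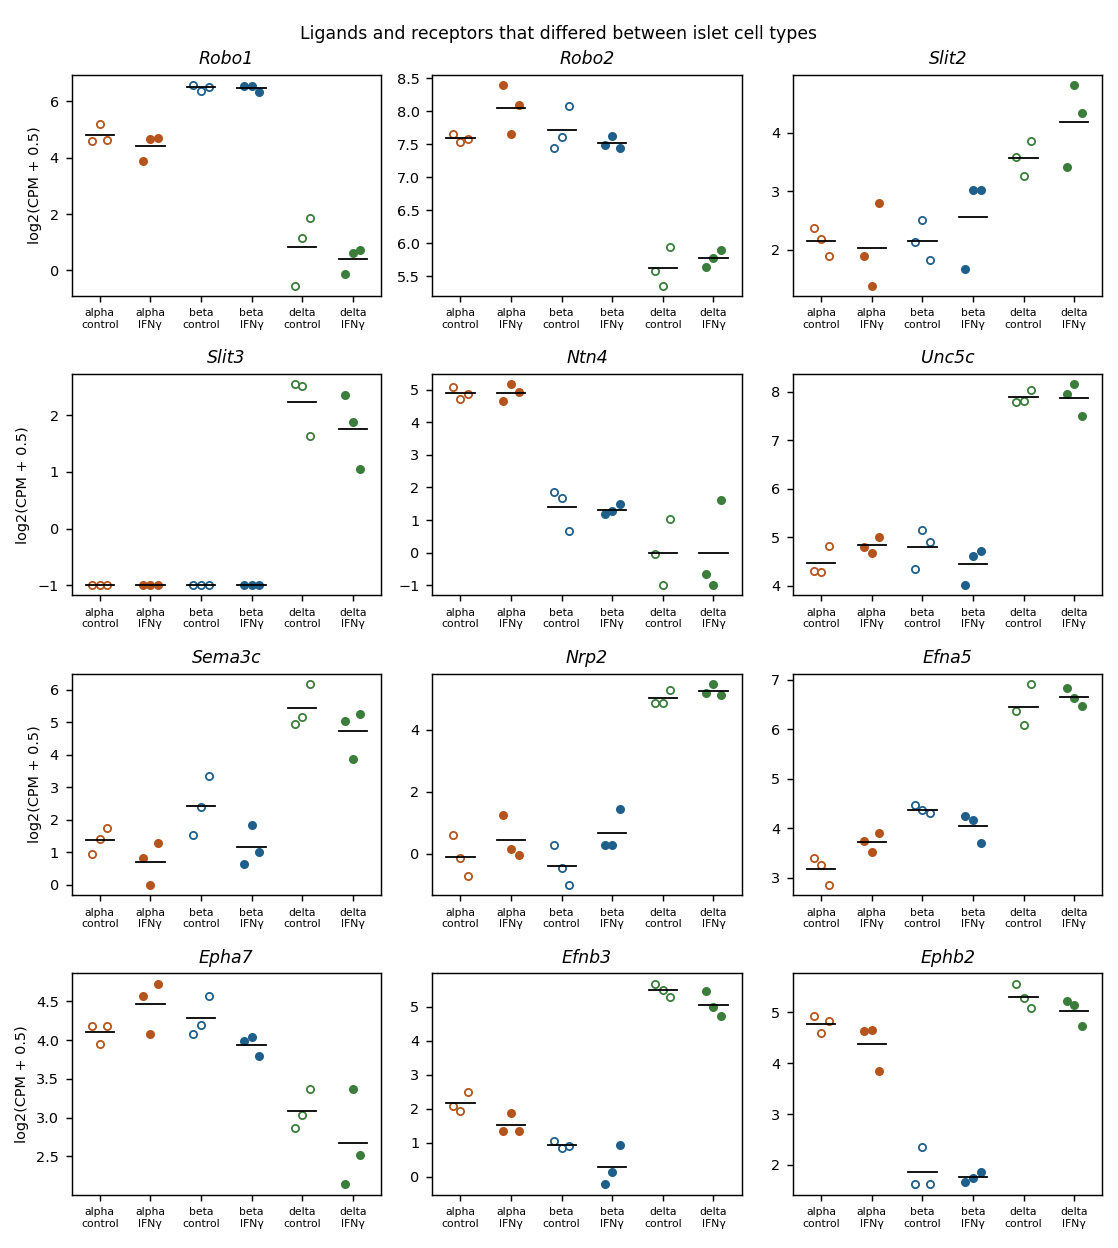
Levels of 12 axon guidance genes as log2(CPM + 0.5) in each library, with open circles for control and filled circles for IFNγ libraries (3 each for alpha, beta and delta cells) and a line at the group mean. Robo1 separates all cell types, Slit3 sits at the floor of the scale in all 12 alpha and beta libraries, and Ntn4 is high only in the 6 alpha libraries. The vertical axes differ between panels.

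Semaphorins, the largest family, held called members in every pair of control cell types. Of the 16 members, 5 were higher and none lower in control alpha than in control beta cells (9.56% and 10.1% of all tested genes). In control delta cells 7 were higher and none lower than in beta cells (11.4% and 9.11%). Against alpha cells, 5 were higher and 2 lower in delta cells (10.9% and 8.77%). Without the delta libraries, Sema3a, Sema3d, Sema3f and Sema6c fell under the minimum sum of counts. Of these, Sema3a was called higher in both delta comparisons and Sema3f in that against alpha cells. These delta counts may thus be raised by the choice of members, and the difference from all genes was not tested. Sema3e, a secreted semaphorin that signals through Plxnd1 without a neuropilin, had 52.3, 38.5 and 29.7 CPM in the alpha controls, 4.13, 6.56 and 1.98 in the beta controls and 80.2, 73.6 and 119 in the delta controls. The 3 groups did not overlap, with log2 fold changes of 3.22 (SE 0.32, adjusted p = 1.27e-06) for alpha against beta, 4.40 (SE 0.33, adjusted p = 2.45e-08) for delta against beta and 1.18 (SE 0.28, adjusted p = 0.00535) for delta against alpha cells.

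Sema3c, another secreted ligand, had 30.2, 35.3 and 72.0 CPM in the delta controls, 1.45, 2.14 and 2.89 CPM in the alpha controls and 2.42, 4.80 and 9.74 CPM in the beta controls. Every delta library was above every alpha and beta library, by 4.38 on the log2 scale (SE 0.56, adjusted p = 1.5e-05) against alpha and by 3.03 (SE 0.51, adjusted p = 0.000243) against beta cells. Sema6a, a membrane-bound semaphorin, had 21.1, 19.6 and 22.2 CPM in the delta controls against 5.52, 8.70 and 2.99 CPM in the alpha controls and 2.28, 3.28 and 0.761 CPM in the beta controls, and it was called in delta cells against both (log2 fold change 3.28 against beta, SE 0.50, adjusted p = 7.94e-05, and 1.88 against alpha, SE 0.45, adjusted p = 0.00624). Sema3a was a low member, with 42 counts summed over the delta controls, 2 over the beta controls and 0 over the alpha controls, which put delta cells at least 11.3-fold above alpha cells when alpha is set to the floor of 3 counts over the group.

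The semaphorins higher in alpha cells than in both other types were Sema4f and Sema4d, membrane proteins. Sema4f had 9.01, 8.43 and 13.7 CPM in the alpha controls, 0.285, 1.05 and 0.456 CPM in the beta controls and 2.39, 4.76 and 1.76 CPM in the delta controls. Alpha exceeded beta cells by 4.04 on the log2 scale (SE 0.64, adjusted p = 0.00016), and delta was below alpha cells with a log2 fold change of -1.81 (SE 0.53, adjusted p = 0.0222), a call that was lost without alpha control 3 (adjusted p = 0.0936), delta control 1 (0.076) or delta control 3 (0.0999). Sema4d, the ligand of Plxnb1, had 43.7, 51.7 and 46.7 CPM in the alpha controls, 33.6, 32.4 and 26.9 CPM in the beta controls and 27.2, 28.4 and 24.1 CPM in the delta controls, a log2 fold change of -0.83 for delta against alpha cells (SE 0.21, adjusted p = 0.00826). Its call for alpha against beta cells (0.61, SE 0.21, adjusted p = 0.0471) was lost in 12 of the 18 fits that left out 1 library, with an adjusted p up to 0.177 without beta control 3. Sema4a, the semaphorin with the highest mean TPM, had 52.4, 37.7 and 57.4 CPM in the alpha controls, 50.3, 26.7 and 18.9 in the beta controls and 49.2, 60.4 and 24.7 in the delta controls. The Sema4a groups overlapped, and no comparison was called.

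Among the 8 plexins, the receptors of semaphorins, Plxna1 and Plxna4 were higher in control alpha than in control beta cells. Plxna4 and Plxnd1 were higher and Plxna2 lower in delta than in beta cells, and Plxnc1 was higher in delta than in alpha cells. Plxna4 and Plxnd1 fell under the minimum sum of counts without the delta libraries, so their place among the members already rested on counts there. Plxnb2, the plexin with the highest mean TPM, had 290, 316 and 307 CPM in the alpha controls, 579, 419 and 375 in the beta controls and 344, 371 and 267 in the delta controls. Beta controls were above alpha controls for Plxnb2 in every library, but the log2 fold change of -0.59 for alpha against beta cells (SE 0.23) had an adjusted p of 0.0782. Plxna2 had 111, 102 and 119 CPM in the alpha controls, 146, 113 and 125 CPM in the beta controls and 94.8, 96.5 and 79.8 CPM in the delta controls. Its difference of -0.50 for delta against beta cells (SE 0.17, adjusted p = 0.0429) was the smallest called, and it was lost in 12 of the 18 fits that left out 1 library (highest adjusted p 0.186, without beta control 1).

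Both neuropilins were low in beta cells. Nrp2, the co-receptor mainly of Sema3f and Sema3c, had 28.9, 28.9 and 38.2 CPM in the delta controls against 1.02, 0.401 and 0.107 CPM in the alpha controls and 0.712, 0.234 and 0 CPM in the beta controls. Delta cells were higher by 6.60 on the log2 scale than beta cells (SE 0.65, adjusted p = 4.93e-07) and by 6.03 than alpha cells (SE 0.61, adjusted p = 1.01e-06). Nrp1, the co-receptor mainly of Sema3a, had 6.97, 3.48 and 3.95 CPM in the alpha controls, 4.20, 4.87 and 3.22 in the delta controls and 0, 0.234 and 0 in the beta controls. With 111 counts in the alpha controls, 120 in the delta controls and 2 in the beta controls, the ratio to beta cells was 51.8 for alpha (95% counting interval 14 to 433, exact) and 45.2 for delta cells (12.3 to 378). Thus Nrp1 RNA was found in alpha and delta cells and Nrp2 RNA mainly in delta cells, while beta controls held 2 counts of Nrp1 and at most 0.712 CPM of Nrp2. Plxna4, a partner of neuropilins, had 20, 42 and 1 counts summed over the alpha, delta and beta controls, and Plxnd1, the receptor of Sema3e, had 1.62, 0.757 and 2.08 CPM in the delta controls while no alpha or beta control exceeded 0.427 CPM.

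Slits and Robos ran opposite to each other between delta cells and the other types. Robo1 (ENSMUSG00000022883, chromosome 16, 72308306 to 73046095, GRCm38) had 95.4, 82.1 and 90.4 CPM in the beta controls, 23.8, 35.7 and 24.0 in the alpha controls and 0.191, 1.73 and 3.11 in the delta controls. Each cell type was separate from the others, with log2 fold changes of -5.74 for delta against beta (SE 0.47, adjusted p = 6.21e-08), -4.06 for delta against alpha (SE 0.46, adjusted p = 3.4e-06) and -1.68 for alpha against beta cells (SE 0.37, adjusted p = 0.00333). Robo2 (ENSMUSG00000052516, chromosome 16, 73891839 to 74411825) had 201, 185 and 191 CPM in the alpha controls, 174, 195 and 269 in the beta controls and 47.2, 40.5 and 60.9 in the delta controls. Alpha and beta cells overlapped for Robo2, and delta cells were lower than both, with log2 fold changes of -2.10 against beta (SE 0.22, adjusted p = 8.94e-07) and -1.95 against alpha cells (SE 0.21, adjusted p = 2.63e-06).

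The ligands Slit2 and Slit3 were higher in delta cells. Slit2 had 11.5, 9.08 and 14 CPM in the delta controls, 4.65, 4.01 and 3.21 in the alpha controls and 3.85, 5.15 and 3.04 in the beta controls, a difference of 1.51 against beta (SE 0.44, adjusted p = 0.0207) and 1.55 against alpha cells (SE 0.44, adjusted p = 0.0196), calls lost in 3 fits each without 1 library (adjusted p up to 0.0783 without beta control 3 and 0.0845 without alpha control 3). Slit3 had 5.34, 5.19 and 2.60 CPM in the delta controls and 0 counts in all 12 alpha and beta libraries. Its 129 counts in the delta controls put delta cells at least 32.4-fold above beta and at least 34.7-fold above alpha cells, with the floor of 3 counts over the group.

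Ntn4 was highest in alpha cells and Unc5c in delta cells. Ntn4, a laminin-like netrin of basement membranes, had 33.6, 25.8 and 28.5 CPM in the alpha controls, 3.13, 2.69 and 1.07 CPM in the beta controls and 0.477, 0 and 1.56 CPM in the delta controls. Alpha exceeded beta cells by 3.65 on the log2 scale (SE 0.69, adjusted p = 0.000808) and delta was below alpha cells (-5.40, SE 0.77, adjusted p = 5.21e-05). The other netrins, Ntn1, Ntn3 and Ntng2, had group means of 0.368 to 2.38 CPM in control cells and differed in no comparison.

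Unc5c, a repulsive netrin receptor, had 222, 224 and 264 CPM in the delta controls against 19.2, 18.9 and 27.6 in the alpha controls and 19.8, 34.8 and 29.2 in the beta controls. The difference was 3.43 against alpha (SE 0.26, adjusted p = 3.74e-08) and 3.08 against beta cells (SE 0.25, adjusted p = 5.88e-08). Unc5a, which had the higher mean TPM over all libraries, had 59.9, 52.2 and 48.4 CPM in the alpha controls, 59.8, 51.2 and 38.3 in the beta controls and 52.8, 54.6 and 28.8 in the delta controls, with overlapping groups. Some exons of Unc5a overlap Hk3, and some of Unc5c overlap a predicted antisense gene, on the opposite strand, and the sources used here do not say whether counting used strand. Unc5d was sparse, with 66 counts in the delta controls, 1 in the beta controls and 0 in the alpha controls, at least 17.8-fold higher in delta than in alpha cells. Dcc, neogenin and 8 other partners of netrins and of the related RGM proteins were looked at as a list, of which 6 were tested. Of these, 4 were higher and none lower in control alpha than in control beta cells, beside 9.56% and 10.1% of all tested genes. In control delta cells 2 were higher and none lower than in beta cells (11.4% and 9.11% of all genes). Against alpha cells, 1 was higher and 2 were lower in delta cells (10.9% and 8.77%).

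The ephrin-A ligands and EphA receptors differed by gene rather than as a class. Efna5 (ENSMUSG00000048915, chromosome 17, 62604184 to 62881317), a ligand of EphA receptors with a known part in contact between beta cells, had 82.3, 67.3 and 120 CPM in the delta controls, 21.5, 20.0 and 19.3 CPM in the beta controls and 10, 9.10 and 6.73 CPM in the alpha controls. The groups were ordered delta, beta, alpha without overlap, with log2 fold changes of 2.15 for delta against beta (SE 0.23, adjusted p = 1.25e-06), 3.39 for delta against alpha (SE 0.24, adjusted p = 2.49e-08) and -1.24 for alpha against beta cells (SE 0.23, adjusted p = 0.000824). Efna1 ran the other way between alpha and beta cells, with 16.1, 7.23 and 11 CPM in the alpha controls and 3.13, 3.16 and 1.07 CPM in the beta controls (log2 fold change 2.20, SE 0.44, adjusted p = 0.00151).

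Among the EphA receptors, Epha7 had 17.7, 14.9 and 17.7 CPM in the alpha controls, 16.4, 17.8 and 23.3 in the beta controls and 6.78, 7.68 and 9.86 in the delta controls. Delta cells were lower, with log2 fold changes of -1.24 against beta (SE 0.28, adjusted p = 0.00373) and -1.05 against alpha cells (SE 0.28, adjusted p = 0.0134, and 0.059 without delta control 1). Epha8 had 9.64, 5.84 and 2.91 CPM in the delta controls while no alpha or beta control exceeded 1.18 CPM, a difference of 3.36 against beta (SE 0.59, adjusted p = 0.000379) and 2.95 against alpha cells (SE 0.57, adjusted p = 0.000996). Epha4, which also binds ephrin-B ligands, had 27 counts in the alpha controls, 54 in the delta controls and 0 in all 6 beta libraries, so that in control cells alpha was at least 8.4-fold and delta at least 13.6-fold above beta cells.

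All 3 ephrin-B ligands were lower in beta cells than in both other types. Efnb3 had 51.0, 44.5 and 38.6 CPM in the delta controls, 3.78, 3.35 and 5.13 CPM in the alpha controls and 1.57, 1.29 and 1.37 CPM in the beta controls. The 3 cell types were apart, delta above beta cells by 4.98 (SE 0.35, adjusted p = 1.02e-08), delta above alpha by 3.44 (SE 0.31, adjusted p = 2.39e-07) and alpha above beta by 1.54 (SE 0.35, adjusted p = 0.00421). Efnb1, the ephrin-B gene with the highest mean TPM, had 25.1, 19.3 and 27.8 CPM in the alpha controls, 8.55, 8.78 and 8.37 in the beta controls and 21.7, 26.0 and 16.4 in the delta controls, 1.49 higher in alpha (SE 0.26, adjusted p = 0.000402) and 1.31 higher in delta than in beta cells (SE 0.26, adjusted p = 0.00102). Efnb2 had 8.28, 10.2 and 9.62 CPM in the alpha controls, 1.28, 0.937 and 1.07 in the beta controls and 6.58, 7.89 and 11.7 in the delta controls, so that alpha and delta cells overlapped and both were above beta cells, by 3.09 (SE 0.39, adjusted p = 1.6e-05) and 2.99 (SE 0.39, adjusted p = 1.45e-05).

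The receptor Ephb2 followed the ephrin-B ligands. It had 29.8, 23.6 and 27.8 CPM in the alpha controls, 46.9, 38.2 and 33.4 in the delta controls and 2.56, 4.57 and 2.59 in the beta controls. Alpha was above beta cells by 3.04 (SE 0.28, adjusted p = 6.23e-07) and delta by 3.59 (SE 0.28, adjusted p = 4.28e-08), whereas the difference of 0.55 between delta and alpha cells (SE 0.24) had an adjusted p of 0.121. Ephb3 was called in the same direction at lower levels, with control means of 2.72 ± 0.417 CPM in alpha, 0.336 ± 0.352 in beta and 2.42 ± 0.85 in delta cells. Beta controls thus held less RNA of all 3 ephrin-B ligands and of 2 of the 3 EphB receptors measured.

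Called differences between control cell types had the same sign where both types shared a file date, 18 of 18 on both dates of alpha and beta cells, 29 of 29 on the date of delta and beta cells and 20 of 20 on that of delta and alpha cells. These within-date values rest on 1 library of each type, which also entered the calls, so they are no independent check of the date. The calls of control alpha against beta cells split as 17 higher and 5 lower when counts were corrected for GC content, and as 19 and 5 with DESeq2.

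The same cell type comparisons in IFNγ libraries share no library with those in controls, though both come from one fit with a shared estimate of spread. Of the 18 members called between control alpha and beta cells, 14 were also called in the same direction between IFNγ-treated cells, which is 77.8% of the control calls and 70.0% of the 20 IFNγ calls. For delta against beta cells the overlap was 25 of 29 (86.2% of the control calls and 89.3% of the 28 IFNγ calls), and for delta against alpha cells it was 15 of 20 (75%, and 71.4% of 21). The IFNγ comparisons called 27.1%, 36.4% and 16% of all tested genes. The share of control calls kept was not computed over all genes, so whether members kept more calls than other genes was not tested. The control calls kept their sign in 17 of 18, 29 of 29 and 20 of 20 members. Among all 52 members, called or not, the sign was the same in 36, 45 and 40. Robo1 in IFNγ libraries had 93.1, 92.8 and 79.4 CPM in beta, 14.1, 24.7 and 25.1 in alpha and 0.418, 1.02 and 1.15 in delta cells, and Unc5c had 248, 285 and 182 CPM in delta cells against 15.6 to 31.6 CPM in the alpha and beta libraries. As in the controls, delta cells were lowest for Robo1 and highest for Unc5c. Robo2, Nrp2, Ntn4, Efnb3 and Ephb2 were likewise called with the sign of each of their control calls. Control calls not repeated with IFNγ include Efna5 and Sema4d for alpha against beta cells. For delta against alpha cells they include Sema3e, Sema4f and Sema4d. With IFNγ, Efna5 had 10.9 to 14.4 CPM in alpha and 12.5 to 18.5 CPM in beta cells. Sema3e had 71.4 to 94.7 CPM in alpha and 91.2 to 117 CPM in delta cells, so both overlapped there.

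**Figure D3:**
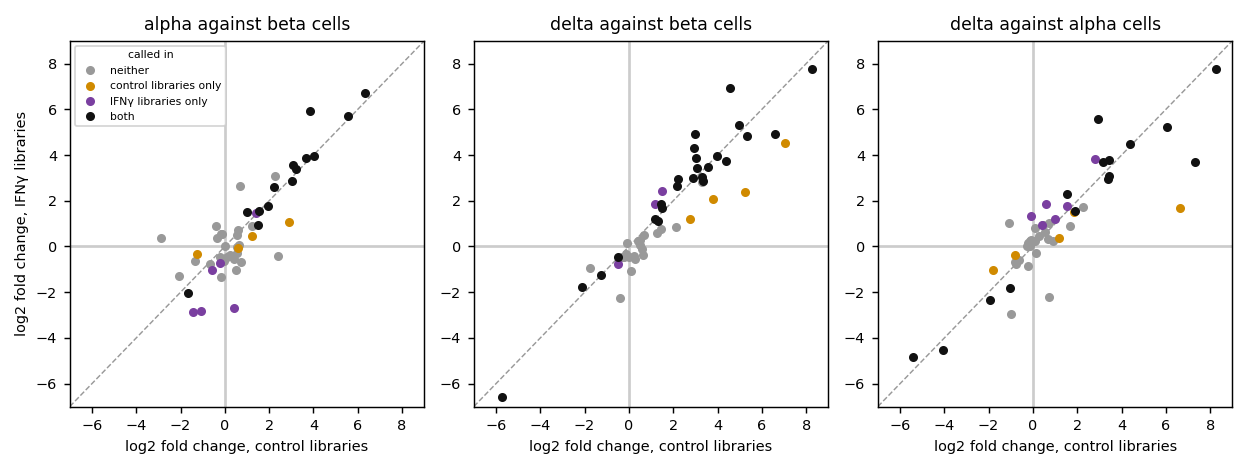
Log2 fold change of each of the 52 members between cell types in control libraries (horizontal axis) against that in IFNγ libraries (vertical axis), for alpha against beta, delta against beta and delta against alpha cells. Colours show in which comparison the member was called, the dashed line marks equal values, and most called members lie near it. Points of genes at 0 counts in 1 group, such as Slit3, depend on the prior count of the fit.

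The second question was which of these genes responded to IFNγ. In alpha and beta cells no member was called, and in delta cells 1 was, Efnb2, whereas edgeR called 0.975% of all tested genes in alpha cells, 1.06% in beta and 1.39% in delta cells (1.21% higher). At an unadjusted p under 0.05 there were 15 members in alpha cells, 3 in beta and 4 in delta cells, beside 21.6%, 4.26% and 11.7% of all tested genes. DESeq2 and a voom fit with the file date as a random block each called 1 member in alpha cells, Sema3e, and none in beta cells, and limma on log2(TPM + 0.1) called none in either. In the common effect, the mean of the 3 responses, 1 member was called, Sema3e, beside 2.9% of all genes (2.23% higher). Median responses over the members were -0.37 in alpha, -0.02 in beta and -0.20 in delta cells on the log2 scale, and those over all tested genes -0.01, 0.0 and -0.05.

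**Figure D4:**
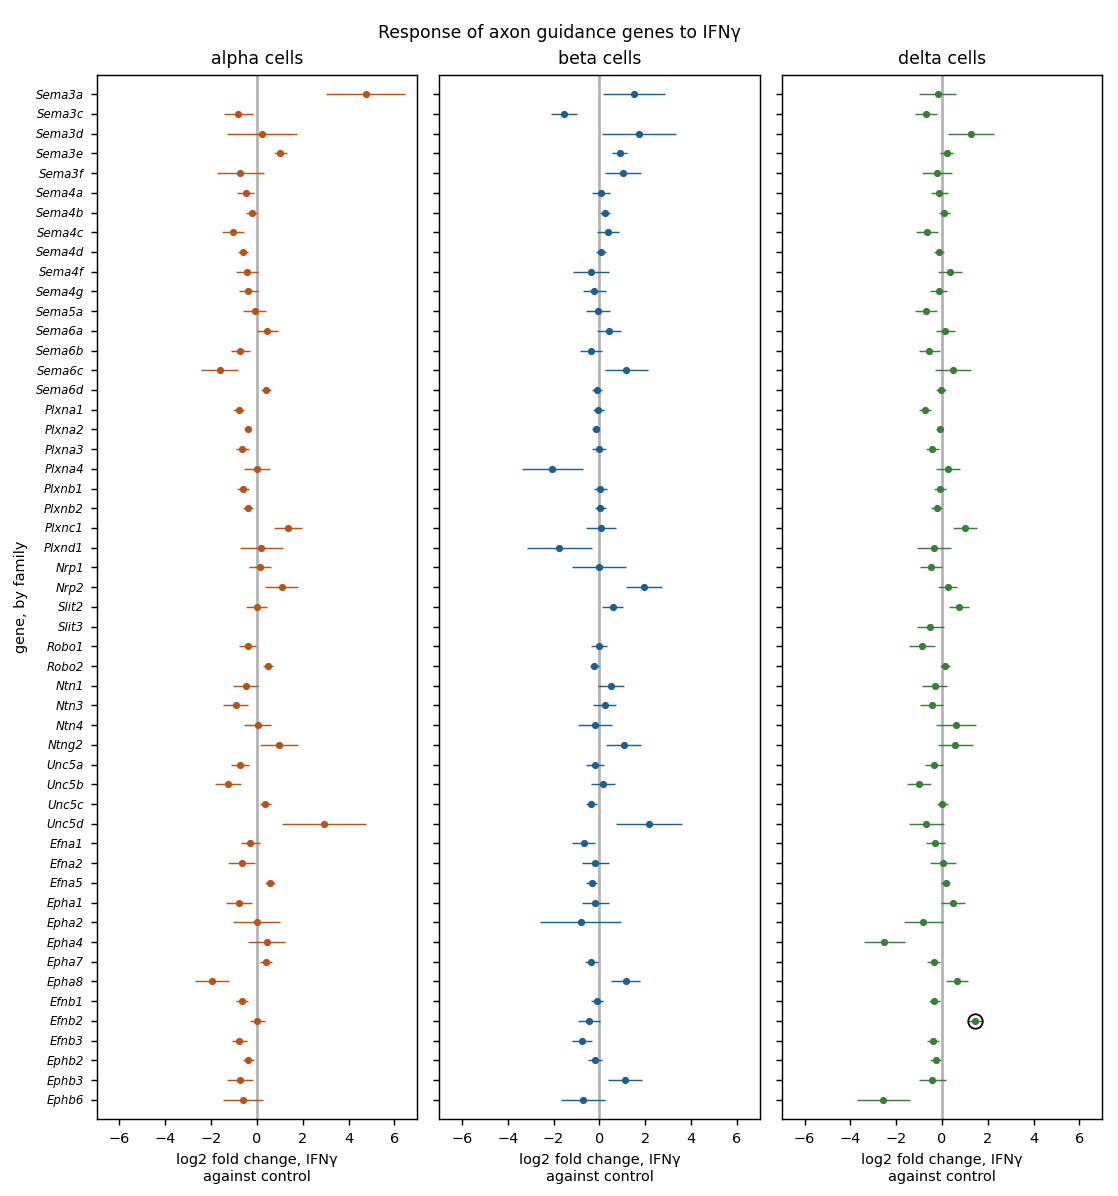
Log2 fold change of IFNγ against control libraries for each member in alpha, beta and delta cells, with bars of 1 SE and a ring around the called response, Efnb2 in delta cells. Members at 0 counts in both groups (Slit3 in alpha cells, Epha4 and Slit3 in beta cells) have no point, and wide bars belong to genes with few counts.

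Efnb2 (ENSMUSG00000001300, chromosome 8, 8617434 to 8661242, minus strand) encodes ephrin-B2, a transmembrane ligand of EphB receptors and of Epha4 that is also a marker of arterial endothelium. It had 6.58, 7.89 and 11.7 CPM in the delta controls and 30.2, 16.6 and 25.1 CPM in the delta IFNγ libraries. All IFNγ libraries were above all controls, by 1.45 on the log2 scale (SE 0.32, adjusted p = 0.0201), 2.74-fold. In alpha cells Efnb2 had 8.28, 10.2 and 9.62 CPM in controls and 10.6, 6.62 and 11.2 with IFNγ, and in beta cells 1.28, 0.937 and 1.07 CPM and 0.355, 1.30 and 0.583. Control and IFNγ libraries overlapped in both. The delta response exceeded that of beta cells by 1.93 (SE 0.58, unadjusted p = 0.00353, adjusted p = 0.884) and that of alpha cells by 1.43 (SE 0.45, unadjusted p = 0.00494, adjusted p = 0.876), so neither difference passed the test over all genes.

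The call for Efnb2 rested on few libraries. It was lost without delta control 1 (adjusted p = 0.152), delta control 2 (0.136), delta IFNγ 1 (0.141) or delta IFNγ 3 (0.0565). It was also lost with a fixed term for the file date (1.33, adjusted p = 0.552), where the 2 delta groups shared no date, and with limma on log2(TPM + 0.1) (0.71, adjusted p = 0.524). The balance of low-GC over high-GC genes was -0.106, -0.056 and 0.87 on the log2 scale in the delta controls and 0.806, 0.43 and 0.866 in the delta IFNγ libraries. The response of Efnb2 with GC offsets was 1.60 (adjusted p = 0.0185). The 5 delta cell markers summed to 37724, 36592 and 16952 CPM in the delta controls and 11227, 15321 and 16750 CPM with IFNγ. Most of this sum was Sst, with 35919, 34772 and 14715 CPM in controls and 9561, 14003 and 14819 CPM with IFNγ. Rbp4 was lower with IFNγ too, while Ghsr and Cd24a overlapped between treatments. Hhex went the other way, with 192, 200 and 227 CPM in controls and 339, 258 and 257 CPM with IFNγ. Although the sort left out cells with CD31, a surface protein of endothelial cells, 8 endothelial genes summed to 1.62 to 3.74 CPM in the delta controls and 4.43 to 9.6 CPM in the delta IFNγ libraries, with Cdh5 and Tie1 at 0 in the controls and Emcn at 0 in the IFNγ libraries, and the part of endothelial RNA or of the delta marker level in the result was not tested.

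Sema3e (ENSMUSG00000063531, chromosome 5, 14025276 to 14256689, plus strand) rose in the common effect by 0.70 on the log2 scale (SE 0.17, adjusted p = 0.0258). It had 52.3, 38.5 and 29.7 CPM in the alpha controls and 94.7, 71.4 and 79.5 with IFNγ, and 4.13, 6.56 and 1.98 CPM in the beta controls and 8.17, 8.42 and 7.23 with IFNγ. Neither cell type overlapped between treatments, while in delta cells 80.2, 73.6 and 119 CPM in controls stood beside 117, 91.2 and 105 CPM with IFNγ and did overlap. The responses by cell type were 1.03 in alpha (SE 0.28, adjusted p = 0.0949), 0.88 in beta (SE 0.32, adjusted p = 0.667) and 0.20 in delta cells (SE 0.27, adjusted p = 0.815), none of them called. Within a file date, 1 IFNγ library could be set against 1 control on 2 dates in each of alpha and beta cells, and Sema3e was higher with IFNγ each time, from 52.3 to 71.4 and from 38.5 to 79.5 CPM in alpha and from 4.13 to 8.17 and from 6.56 to 8.42 CPM in beta cells. The common call was lost in 9 of 18 fits without 1 library (adjusted p up to 0.0645) and with GC offsets (0.51, adjusted p = 0.0919). It was also lost with a fixed date term (0.39, adjusted p = 0.761) and with limma on log2(TPM + 0.1) (0.65, adjusted p = 0.137).

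**Figure D5:**
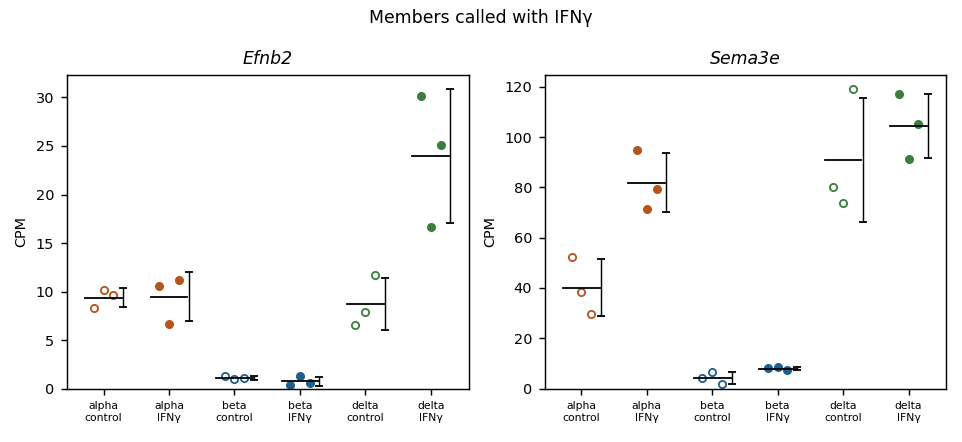
CPM of Efnb2 and Sema3e, the members called in an IFNγ comparison, in each library, with open circles for control and filled circles for IFNγ libraries, a line at the group mean and bars of 1 SD (n = 3 per group). Efnb2 is higher with IFNγ in delta cells, from 6.58 to 11.7 CPM up to 16.6 to 30.2 CPM, and Sema3e in alpha and beta cells.

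The promoters of these genes are shown because many interferon-responsive genes carry an ISRE element, which interferon regulatory factors bind. They are the 250 bases before the RefSeq transcript start on GRCm38.p6, chr8:8661243-8661492 on the minus strand for Efnb2 (72.0% GC) and chr5:14025026-14025275 on the plus strand for Sema3e (48.0% GC), each written 5′ to 3′ in lower case, with no capitals since neither window held the ISRE letters.
Efnb2: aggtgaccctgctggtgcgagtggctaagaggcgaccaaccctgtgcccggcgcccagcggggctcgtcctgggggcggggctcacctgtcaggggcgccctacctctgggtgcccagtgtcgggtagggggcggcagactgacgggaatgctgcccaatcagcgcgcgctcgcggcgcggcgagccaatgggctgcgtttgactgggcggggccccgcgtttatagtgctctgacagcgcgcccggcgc
Sema3e: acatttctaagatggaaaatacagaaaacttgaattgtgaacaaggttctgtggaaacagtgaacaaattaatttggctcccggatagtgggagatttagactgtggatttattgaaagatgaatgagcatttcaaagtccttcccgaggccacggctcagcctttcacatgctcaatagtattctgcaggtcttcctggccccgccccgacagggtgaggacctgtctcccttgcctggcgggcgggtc
The letters GAAANNGAAA (ISRE core) were searched on both strands. They stood in 2.98% of 32851 promoters of this length and in 2 of the 45 members with a promoter in the table, Plxnc1 and Sema6b.

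The number of calls in alpha cells turned on alpha IFNγ 2, for the members as for all genes. Without it, 11 of the 52 members (21.2%) were called, 3 higher (Sema3a, Robo2 and Sema3e) and 8 lower (Efnb3, Sema4d, Unc5a, Sema4c, Epha8, Plxna1, Efnb1 and Plxnb1), near the 20.8% of all tested genes called in that fit. Robo2 had 338 and 274 CPM in alpha IFNγ 1 and 3, 200 CPM in alpha IFNγ 2 and 185 to 201 CPM in the alpha controls. Unc5a had 20.3 and 21.8 CPM in alpha IFNγ 1 and 3 against 53.9 CPM in alpha IFNγ 2 and 48.4 to 59.9 CPM in the controls. Plxna1 had 32.1 and 24.8 CPM against 45.5 CPM and 52.3 to 70.6 CPM. For all 3 genes alpha IFNγ 2 was nearer to the controls than the other IFNγ libraries were. They were taken from the members called only without that library, so this closeness follows from the choice of genes.

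The GC content of the genes moved with this difference. The balance of low-GC over high-GC genes was 1.008 and 0.876 on the log2 scale in alpha IFNγ 1 and 3, -0.562 in alpha IFNγ 2 and between -0.767 and -0.478 in the alpha controls. The 26 members of lower GC (39.2% to 55.0% of exon bases) had a median difference from the control mean of 0.22, 0.03 and 0.05 in alpha IFNγ 1, 2 and 3, and the 26 of higher GC (55.1% to 63.2%) one of -0.84, -0.12 and -0.82. With all 3 libraries, 15 members had an unadjusted p under 0.05 in alpha cells, led by Sema3e (1.03, adjusted p = 0.0949), Plxna1 (-0.80, adjusted p = 0.14) and Sema4d (-0.62, adjusted p = 0.156). How far GC composition accounts for these differences was not tested.

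In beta cells the unadjusted p was under 0.05 for Sema3c, Sema3e and Nrp2. Sema3c had 2.42, 4.80 and 9.74 CPM in the beta controls and 1.07, 3.08 and 1.52 CPM with IFNγ (log2 fold change -1.53, SE 0.57, adjusted p = 0.696), with overlapping libraries, and it was called when genes with low counts were kept in the fit (-1.54, adjusted p = 0.00248). Nrp2 had 0.712, 0.234 and 0 CPM in the beta controls and 0.711, 0.711 and 2.21 CPM with IFNγ (1.94, SE 0.79, adjusted p = 0.91). In delta cells the members with an unadjusted p under 0.05, besides Efnb2, were Plxna1, Epha4 and Ephb6. Plxna1, a co-receptor of neuropilins, had 44.3, 42.9 and 27.5 CPM in the delta controls and 18.2, 29.6 and 20.4 CPM with IFNγ (-0.75, SE 0.25, adjusted p = 0.217). Its common effect was -0.53 (SE 0.14, adjusted p = 0.0509). That effect was called with DESeq2 (adjusted p = 0.0155) and with edgeR and the replicate block (adjusted p = 0.0254), but not with GC offsets. Epha4 had 0.763, 1.95 and 2.91 CPM in the delta controls and 0.835, 0 and 0.164 CPM with IFNγ (-2.53, SE 0.89, adjusted p = 0.282).

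Differences of response between cell types gave no called member, and edgeR called no gene at all in these contrasts. At an unadjusted p under 0.05 there were 6 members for alpha against beta, 1 for delta against beta and 5 for delta against alpha cells, beside 13.3%, 4.74% and 4.52% of all tested genes. DESeq2 and the voom fit called no member either. Without alpha IFNγ 2, Sema4d (-0.98, adjusted p = 0.0353) and Epha8 (-4.06, adjusted p = 0.0381) were called for alpha against beta cells, beside 7.62% of all tested genes.

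The proteins that work with these ligands and receptors were read from 6 lists of 103 genes (among them netrin and RGM partners, semaphorin co-receptors and effectors, Slit and Robo effectors, Eph and ephrin effectors and chemokine guidance), of which 88 were tested. With IFNγ, none of the 88 was called in any cell type, with 32, 1 and 8 at an unadjusted p under 0.05 in alpha, beta and delta cells (21.6%, 4.26% and 11.7% of all tested genes), and 1 was lower in the common effect, Grip1, an adaptor of ephrin-B proteins (-0.49, SE 0.13, adjusted p = 0.0474). Between control cell types 25 partners were higher and 9 lower in alpha than in beta cells, 21 higher and 10 lower in delta than in beta cells, and 9 higher and 19 lower in delta than in alpha cells, where 19.7%, 20.5% and 19.7% of all tested genes were called in either direction.

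Dscam, a cell adhesion molecule that also binds netrin, had 84.7 ± 21.2 CPM in delta, 11.3 ± 6.46 in alpha and 0.536 ± 0.573 in beta controls (log2 fold change 7.25 for delta against beta cells, SE 0.62, adjusted p = 1e-07). Nrcam, a cell adhesion molecule that associates with neuropilins, ran the other way, with 60.7 ± 12.6 CPM in alpha, 43.2 ± 18.9 in beta and 1.73 ± 1.66 in delta controls (-5.13 for delta against alpha cells, SE 0.61, adjusted p = 6.26e-06). Srgap3, a GTPase activating protein downstream of Robo, had 41.4 ± 7.83 CPM in alpha and 26.0 ± 5.47 in delta controls against 3.77 ± 0.685 in beta controls (3.45 for alpha against beta cells, SE 0.31, adjusted p = 4.61e-07). Pak1, a kinase activated by Rac and Cdc42, had 35.9 ± 5.85 CPM in delta controls against 2.53 ± 1.56 in alpha and 4.45 ± 1.22 in beta controls (3.84 for delta against alpha cells, SE 0.33, adjusted p = 1.89e-07). Rgma, a ligand of neogenin, had 8.57 ± 1.84 CPM in alpha against 0.415 ± 0.171 in beta controls (4.34, SE 0.58, adjusted p = 2.76e-05). Ptk7, a receptor-like pseudokinase, had 13 ± 1.41 against 1.32 ± 1.25 CPM (3.29, SE 0.54, adjusted p = 0.000246). Chl1, a cell adhesion molecule related to L1, had 12.3 ± 5.32 CPM in alpha against 0.577 ± 0.42 in delta controls (-4.37 for delta against alpha cells, SE 0.61, adjusted p = 4.17e-05). Dpysl3, a collapsin response mediator protein, had 17.4 ± 0.721 CPM in delta against 1.06 ± 0.302 in beta controls (4.00, SE 0.44, adjusted p = 1.95e-06). Vav3, a guanine nucleotide exchange factor, had 7.14 ± 1.95 CPM in delta controls, 0.369 ± 0.201 in alpha and 0.568 ± 0.219 in beta controls (4.19 for delta against alpha cells, SE 0.57, adjusted p = 2.88e-05). Among the 21 Slit and Robo effectors, 9 were higher and 2 lower in control alpha than in control beta cells. In control delta cells 4 were higher and 2 lower than in beta cells, and none were higher and 6 lower than in alpha cells. Of all tested genes, 9.56%, 11.4% and 10.9% were higher and 10.1%, 9.11% and 8.77% lower in these comparisons. Whether this list differed from all genes was not tested.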

How the data were processed

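The authors made randomly primed Ovation SoLo libraries of total RNA, which they sequenced as paired ends on a NextSeq 500. Per the labels and the methods of the study, reads were aligned with STAR 2.5.2b to GRCm38 and quantified with RSEM, of unstated version. For each library the authors deposited RSEM expected counts, TPM, FPKM and effective lengths per gene. FPKM and effective lengths were not used here. Symbols were taken from GENCODE M21 for 55227 of the 55487 genes (99.53%). Unc5 genes were read as Unc5 followed by 1 letter, which leaves out Unc50 and Unc5cl. Depth was 6128845 to 11531734 expected counts per library, and counting intervals and the floor of 3 counts cover counting error only.

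Expected counts were rounded and tested in R 4.3.3 with edgeR 4.0.16, all 18 libraries in one fit with 1 mean per group, TMM scaling, filterByExpr with a minimum count of 10, the quasi-likelihood F-test and Benjamini-Hochberg adjustment over 17338 genes, called at an adjusted p under 0.05. The test was checked on simulated counts. The study fitted a batch term in DESeq2 1.32.0, and the labels give no batch, so none was fitted. Alternatives were DESeq2 1.42.0, RLE scaling, no low-count filter, the replicate number as a block, GC offsets, both together, the file date as a fixed term, limma 3.58.1 on log2(TPM + 0.1), only the compared groups, and each library left out. A voom fit with the date as a random block was added after seeing the data. Deviations from group means of control and IFNγ libraries with the same replicate number correlated by 0.223, 0.192 and 0.126 in beta cells. These correlations were 0.094, 0.054 and -0.194 in alpha and -0.048, 0.202 and 0.279 in delta cells. Every pair passed 0.1, a limit set by choice, in beta cells alone, so the numbers were read as possible pairs only there. The main fit has no pair term in any cell type, and its tests in beta cells thus leave a pairing out. The replicate block served as an alternative only. In alpha cells, IFNγ 2 shared its file date with control 1 and IFNγ 3 with control 2.

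The gene families and the partner and marker lists were chosen with earlier results of these data known. Values in each library are given for members called with IFNγ, for up to 6 called members per direction in each control comparison with a mean of at least 5 CPM and no overlap between libraries, for the member with the highest mean TPM in each family, and for up to 4 partners with the largest called change in each control comparison and in the common IFNγ effect. A further motif search is not reported here. Nrp1, Slit3, Epha4, Sema3a, Plxnd1, Plxna4, Unc5d, Ephb3 and the members given below the IFNγ calls were chosen after their values were seen.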

Additional observations from a re-analysis of the deposited data

How the results depend on the processing

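Between cell types, the direction and the count of called members held within 1.5 times under nearly all alternatives, and no named fold change reversed under any of them. Of the named fold changes, 850 combinations with an alternative stayed on their side of the threshold and 46 lost the call. These combinations include the 18 fits without 1 library, most of which left both groups of a compared pair whole. Most named members had also been picked for large changes without overlap between libraries. The split is therefore no measure of how stable the calls of all members are. The exceptions among the counts were limma on log2(TPM + 0.1), with 13 members called for IFNγ-treated alpha against beta cells and 13 for delta against alpha cells, and the file date as a fixed term, with 14 for IFNγ-treated delta against beta cells. Of the control calls, the date term kept 17 of 18 for alpha against beta and 18 of 29 for delta against beta cells. It kept 14 of 20 for delta against alpha cells. In IFNγ libraries it kept 18 of 20, 13 of 28 and 15 of 21 in the same order. The calls it ended include the control delta calls of Epha7, Epha8, Plxna2 and Sema4f. Limma on TPM shifted the median of all genes by -0.36 to 0.25 on the log2 scale, and other settings by at most 0.06.

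The IFNγ counts were small and moved more. In alpha cells DESeq2 called 1 member, the fit without a low-count filter 2 (Sema3e and Plxna1) and the voom date block 1. In beta cells the unfiltered fit called 1 member. In delta cells the date term and limma on TPM each called 0. In the common effect DESeq2 and the unfiltered fit each called 4 (Sema3e, Nrp2, Sema3c and Plxna1), the voom date block 2, and the date term and limma on TPM 0. GC offsets, alone or with the replicate block, called 1 member in the common effect, Sema3c in place of Sema3e. With the replicate number as a block the common effect had 2 calls, Sema3e and Plxna1, against 1 without it, and the pairing changed no other count by more than 1.5 times. Without 1 library, the calls ranged from 0 to 11 in alpha, 0 to 1 in delta, 0 to 4 in the common effect and 0 to 2 for the response of alpha against beta cells. In the control comparisons they ranged from 17 to 19 for alpha against beta, 22 to 30 for delta against beta and 17 to 22 for delta against alpha cells, and in the IFNγ libraries from 17 to 25, 24 to 30 and 15 to 21. Without beta control 3, 1 member was called in alpha cells and 2 in the common effect. The causes were not tested. Depth limits the members with few counts, since Slit3, Epha4, Sema3a, Unc5d and Plxna4 had 0 counts in a whole group, so that their size is known only as a bound.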

Other observations

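Of the 18 protein-coding genes of the same families that stayed under 90 counts, several were uneven between the cell types, given here as sums of expected counts over the 6 libraries of each type and without a test. Slit1 had 77 counts in delta libraries and 5 in each of the alpha and beta libraries. Ntng1, a membrane-bound netrin, had 61 counts in delta and 11 in each of the other types, and Plxnb3 had 37 in delta and 6 in each of the others. Epha5, an EphA receptor known from beta cells, had 47 counts in beta, 13 in alpha and 1 in delta libraries. Ephb4, the main receptor of ephrin-B2 on veins, had 38 counts in delta libraries, 32 of them with IFNγ and 6 in controls, against 4 in alpha and 3 in beta libraries. Ephb1 had 0 counts in all 18 libraries.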
